A study of Rattus norvegicus with 51 samples.

Results

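Cav1, Cav2, Cav3 and Ptrf, the genes of the 3 caveolins and of cavin-1, were followed across a microarray study of neonatal rat ventricular myocytes, the contractile cells of the newborn rat heart kept in culture. Each gene was taken by its symbol in the deposited annotation and, where a symbol had several probe sets, by the probe set with the highest mean, which gave 4 of the 18602 genes measured. The cells were from Sprague-Dawley rats and were plated on silicone membranes coated with fibronectin, either evenly (isotropic) or in a micropattern that aligns the cells (anisotropic). A first set of arrays was made after 1 h of attachment on the isotropic coating, called 0 h here, with 1 array from each of 6 harvests (n = 6). The other 15 groups had 3 arrays each and were taken after a further 6, 24 or 96 h without stretch or with stretch, which on anisotropic cells ran along the cells (longitudinal) or across them (transverse). In all there were 51 arrays in 16 groups. No group carried a genetic change, all cultures were in serum-containing medium, and the sources used here do not give the amplitude or rate of stretch or the age of the animals. The harvest number in the labels ties arrays of different groups to one preparation of cells.

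Caveolae are small flask-shaped pits of the plasma membrane that flatten when the membrane is pulled. Caveolin-1 and caveolin-3 build the pit, caveolin-1 in endothelium, fibroblasts, smooth muscle and fat cells and caveolin-3 in cardiac and skeletal muscle, while caveolin-2 joins caveolin-1 and depends on it for its place at the membrane. Cavin-1, the product of Ptrf, is a cytoplasmic coat protein without which caveolae do not form. The cultures are named for their myocytes, and the mean of the cardiomyocyte markers Myh6, Tnnt2, Tnni3, Actn2, Ryr2, Myl3 and Pln lay between 11.05 and 12.07 on the log2 scale in every array. Markers of fibroblasts, endothelium, macrophages, smooth muscle with pericytes, and fat cells were measured too. How each list moved is given beside the results, and the part of these cells in them was not tested. In such mixed cultures fewer cells of a type and less RNA per cell cannot be told apart.

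In the RefSeq annotation of the rat build GRCr8, Cav2 (chr4:46582681-46590058) and Cav1 (chr4:46606538-46639616) are neighbours on the plus strand, 16479 bases apart with 0 annotated genes wholly between them. Cav3 lies on the same chromosome at chr4:147137993-147153967 and Ptrf, named Cavin1 in RefSeq, at chr10:86384401-86398240. The probe sets were 10853816 for Cav1, 10853810 for Cav2, 10857663 for Cav3 and 10747531 for Ptrf. A second Cav2 probe set held the same value in every array. The promoters of the 3 caveolin genes are shown because the neighbours Cav1 and Cav2 both fell over time in culture and Cav3 rose at 6 h. Each is the RefSeq plus strand from 250 bases before the transcript start to 50 bases after it, at chr4:46606288-46606587 for the upstream of the 2 Cav1 starts, chr4:46582431-46582730 for Cav2 and chr4:147137743-147138042 for Cav3. Capitals mark the motifs named after the sequences, apart from the E-box, which most windows hold.
Cav1: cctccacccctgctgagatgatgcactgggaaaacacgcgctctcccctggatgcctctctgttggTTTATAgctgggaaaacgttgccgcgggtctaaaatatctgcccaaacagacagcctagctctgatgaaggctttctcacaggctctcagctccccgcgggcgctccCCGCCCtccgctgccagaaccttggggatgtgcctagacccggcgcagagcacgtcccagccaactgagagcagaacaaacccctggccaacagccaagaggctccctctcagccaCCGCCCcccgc
Cav2: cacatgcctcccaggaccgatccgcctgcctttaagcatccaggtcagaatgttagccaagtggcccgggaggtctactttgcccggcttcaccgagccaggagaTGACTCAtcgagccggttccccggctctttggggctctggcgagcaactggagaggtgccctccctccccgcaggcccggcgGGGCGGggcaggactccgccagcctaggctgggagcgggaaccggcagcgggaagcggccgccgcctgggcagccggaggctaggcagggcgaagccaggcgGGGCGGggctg
Cav3: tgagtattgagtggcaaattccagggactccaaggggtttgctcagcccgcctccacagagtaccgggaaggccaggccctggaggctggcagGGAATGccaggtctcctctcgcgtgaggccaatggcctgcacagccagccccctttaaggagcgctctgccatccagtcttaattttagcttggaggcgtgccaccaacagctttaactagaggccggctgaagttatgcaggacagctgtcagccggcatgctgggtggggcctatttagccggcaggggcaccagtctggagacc
The 7 motifs searched on both strands were the GC box GGGCGG, the MCAT element CATTCC, the AP-1 element TGANTCA, the TATA box TATAAA, the E-box CANNTG, the CArG box and the MEF2 element. The Cav1 window held 2 GC boxes and 1 TATA box, all read on the minus strand, and 1 E-box. The Cav2 window held 2 GC boxes, 1 AP-1 element and 3 E-boxes. The Cav3 window held 1 MCAT element on the minus strand and 1 E-box. None of these matches overlapped another. Of 33469 rat promoter windows of the same length, 33.1% held a GC box, 14.2% an MCAT element, 7.3% an AP-1 element, 14.2% a TATA box, 72.1% an E-box, 1.6% a CArG box and 0.6% a MEF2 element. A match is a description of the letters and not of binding.

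A pair of arrays stood apart from their groups and bear on every Cav1 comparison that follows. The array labelled 24 h isotropic stretched, replicate 1, had a Cav1 signal of 9.28 where the other arrays of its group had 7.30 and 7.83. The array labelled 96 h isotropic unstretched, replicate 1, had 7.52 where the others had 9.16 and 9.15. Each of the 15 columns of the authors' deposited log2 fold changes against 0 h was matched to the group whose difference of means it lay nearest. With the arrays as labelled, 13 of 15 columns equalled that difference to within 0.001 in the median. Once these 2 arrays were exchanged, 15 of 15 did so. Columns were not matched by header: one headed 96 h isotropic unstretched equalled the 24 h isotropic unstretched group, and no column was headed for that group. The labels were kept, and values are as labelled unless said otherwise. Beside many results, values with the 2 arrays exchanged or with both left out are added.

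Cav1 and Cav2 varied far more across the study than most genes did, Cav3 somewhat more and Ptrf about as much as the middle of all genes. The distance between the highest and the lowest group mean was 2.68 log2 units for Cav1, 3.04 for Cav2, 0.81 for Cav3 and 0.43 for Ptrf, against a median of 0.47 over all genes. Of all genes, 98.6% had a smaller distance than Cav1, 99.2% than Cav2, 76.0% than Cav3 and 46.4% than Ptrf. Cav1, Cav2 and Ptrf had their highest group mean at 0 h. Cav3 had its highest at 6 h of longitudinal stretch. Signals of different probe sets are not on one scale, so levels are compared only within a gene.

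**Figure D1:**
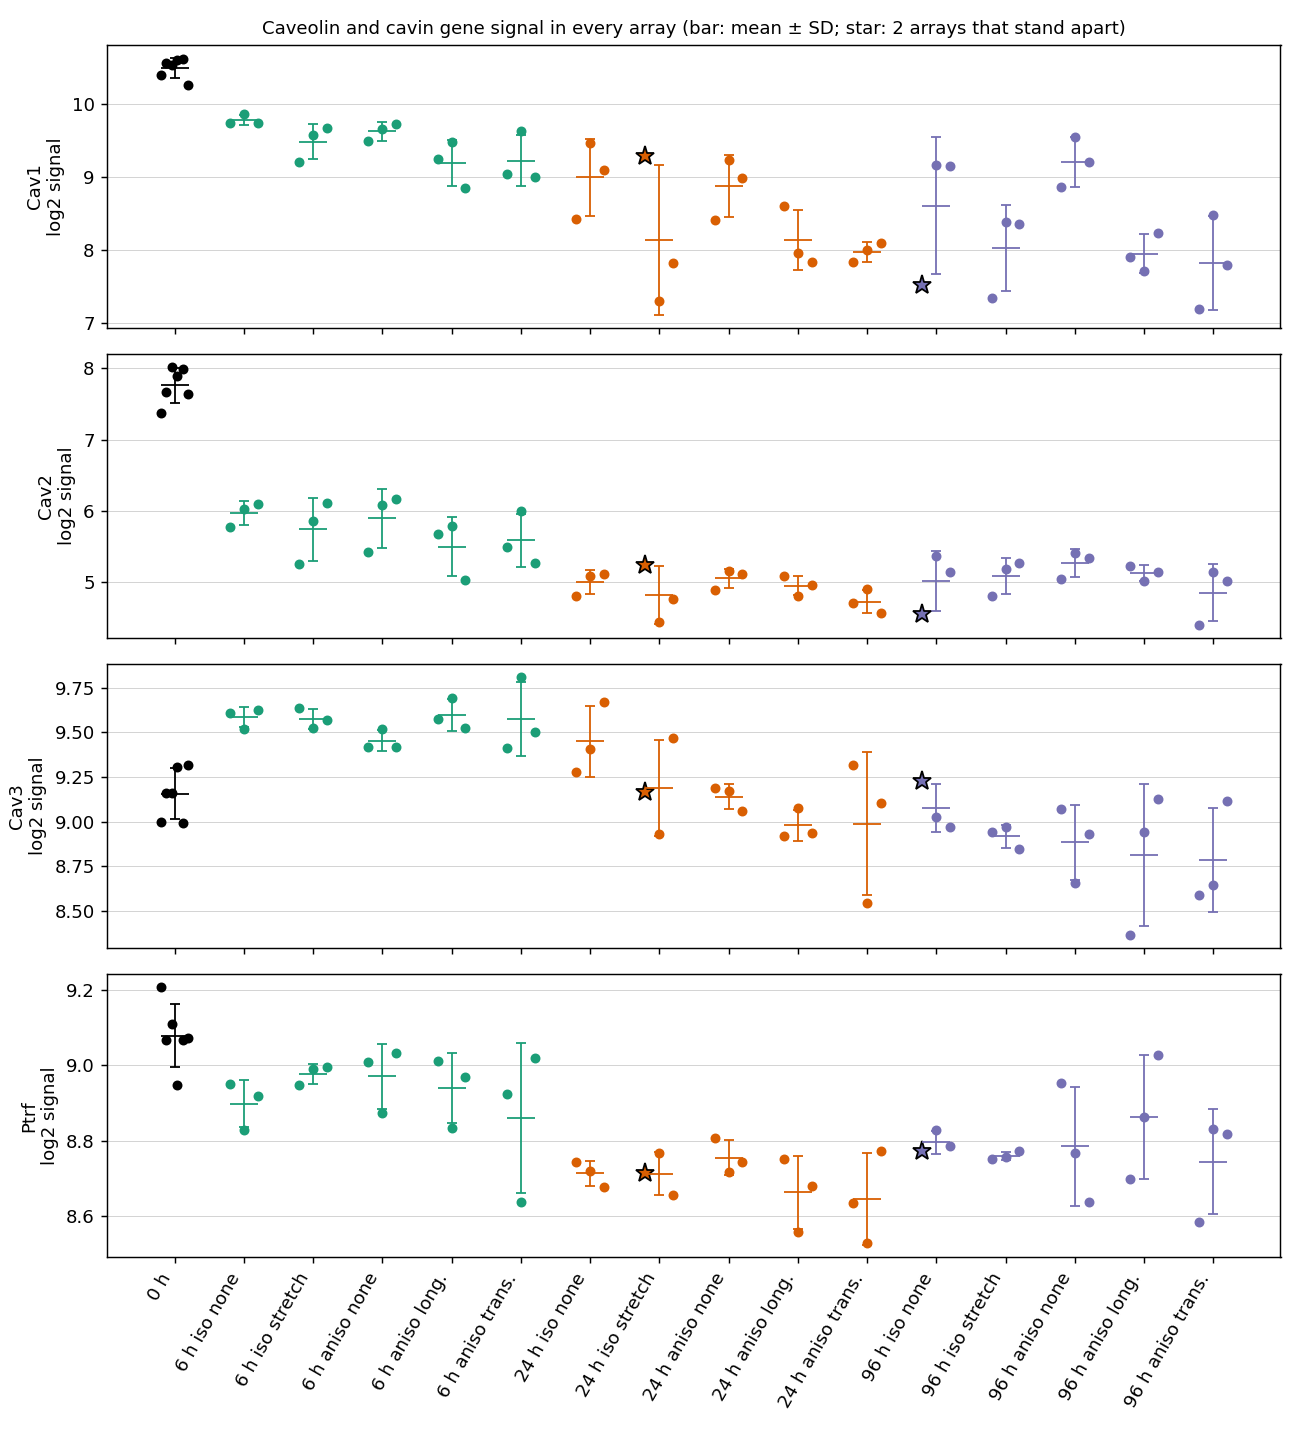
Log2 signal of Cav1, Cav2, Cav3 and Ptrf in each of the 51 arrays (points), by time, layout and stretch, with the mean and SD of each group (n = 6 at 0 h, n = 3 elsewhere) on a separate vertical scale for each gene. The 0 h arrays of Cav1 and Cav2 sit above all other arrays, and the 2 stars are the arrays at 9.28 and 7.52 for Cav1 that stand apart from their groups.

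Most neighbours in the order of the 16 group means were not separate. For Cav1, the ranges of neighbouring groups overlapped in 13 of 15 steps, and 0 h, the highest, was separate from the next, 6 h isotropic unstretched. For Cav2 and Cav3 the ranges overlapped in 14 of 15 steps, and for Ptrf in 15 of 15. Without stretch, Cav1 averaged 10.50 ± 0.14 at 0 h (SD, n = 6), 9.78 ± 0.06 at 6 h on isotropic and 9.63 ± 0.12 on anisotropic coating (SD, n = 3 each), and 8.995 ± 0.53 and 8.88 ± 0.42 at 24 h. At 96 h it averaged 8.61 ± 0.94 on isotropic and 9.21 ± 0.34 on anisotropic coating.

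The first question is how the caveolar genes change once the cells are in culture, without stretch. Cav2 fell most. Its 0 h arrays ran from 7.38 through a median of 7.78 to 8.01, and the isotropic unstretched arrays read 5.77, 6.03 and 6.10 at 6 h, 4.80, 5.08 and 5.12 at 24 h, and 4.55, 5.36 and 5.14 at 96 h. None of these later arrays reached the lowest 0 h array. Cav2 was dim by then, with means of all groups at 24 and 96 h between 4.73 and 5.26. The array medians were 5.31 to 5.43, and the 25th percentile of gene means was 4.41. Whether so low a signal limited any further fall was not tested. With harvest in the model, Cav2 was lower than at 0 h by -1.81 ± 0.18 log2 units at 6 h (SE, adjusted p = 6.44e-10, limma), a 3.5-fold difference, and by -2.76 ± 0.18 at 24 h and -2.76 ± 0.18 at 96 h (adjusted p = 8.71e-15 at 96 h, limma), or 6.76-fold at 96 h. Most of this lay in the first day: Cav2 fell by 0.95 between 6 and 24 h on isotropic coating (adjusted p = 0.00117, limma) and by 0.89 on anisotropic coating (adjusted p = 0.00214, limma), while from 24 to 96 h the difference on isotropic coating was 0.00 with a 95% interval of -0.41 to 0.41. On exchanging the 2 arrays, the Cav2 mean at 96 h was 5.25 in place of 5.02, its difference from 0 h was -2.51 (adjusted p = 2.47e-16, limma), and the one from 24 to 96 h was 0.25 and did not pass (adjusted p = 0.301, limma).

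Cav1 fell as well. Its 0 h arrays ran from 10.26 through a median of 10.55 to 10.62. The isotropic unstretched arrays read 9.75, 9.86 and 9.75 at 6 h, 8.42, 9.47 and 9.09 at 24 h, and 7.52, 9.16 and 9.15 at 96 h, all below the 0 h arrays. Against 0 h the difference was -0.75 ± 0.31 at 6 h, which did not pass (adjusted p = 0.0658, limma), -1.51 ± 0.31 at 24 h (adjusted p = 0.000158, limma) and -1.92 ± 0.31 at 96 h (adjusted p = 4.87e-06, limma). With the 2 arrays exchanged, the 6 h difference was -0.71 ± 0.19 and passed (adjusted p = 0.00302, limma), and the 96 h difference was smaller, at -1.30 ± 0.19 (adjusted p = 6.26e-07, limma). Between 6 and 24 h the differences of -0.76 on isotropic and -0.81 on anisotropic coating did not pass as labelled (adjusted p = 0.164 and 0.135, limma) and passed with the arrays exchanged, at -0.82 and -0.84 (adjusted p = 0.00691 and 0.00558, limma). From 24 to 96 h on isotropic coating the Cav1 difference was -0.42 as labelled and 0.23 with the arrays exchanged, and neither passed.

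Cav3, the muscle caveolin, went the other way at first. Its 0 h arrays ran from 8.99 through a median of 9.16 to 9.32, and at 6 h on isotropic coating without stretch they read 9.61, 9.52 and 9.63, all above 0 h. The rise was 0.54 ± 0.11 (SE, adjusted p = 0.000183, limma). At 24 h Cav3 read 9.28, 9.40 and 9.67, overlapping 0 h, with a difference of 0.30 ± 0.11 (adjusted p = 0.0262, limma), and at 96 h the difference was 0.03 with a 95% interval of -0.20 to 0.25 (0.01 with the 2 arrays exchanged and -0.05 with both left out). On anisotropic coating Cav3 fell by 0.41 from 6 to 24 h (adjusted p = 0.0244, limma). The 24 h rise and this fall lost their calls without the harvest term, at adjusted p = 0.104 and 0.259 (limma), and with harvest as a random block. The fall also lost its call with the 0 h array of each harvest subtracted. With quantile scaling repeated, Cav3 passed in 2 of 22 comparisons in place of 3. The 24 h rise also lost its call without replicate 1 at 0 h or without replicate 2 or 3 at 24 h (adjusted p = 0.0528, 0.112 and 0.0852, limma), and the fall without replicate 1 or 2 at 6 h or replicate 3 at 24 h (adjusted p = 0.057, 0.126 and 0.221, limma).

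Ptrf, the cavin-1 gene, fell by 0.33 at 24 h (SE 0.07, adjusted p = 0.00031, limma) and by 0.27 at 96 h (SE 0.07, adjusted p = 0.00226, limma). Its 0 h arrays ran from 8.95 through a median of 9.07 to 9.21, and the arrays at 24 h read 8.74, 8.72 and 8.68. All arrays at 24 and 96 h on isotropic coating without stretch were below all 0 h arrays. At 6 h the difference was -0.17 (adjusted p = 0.0674, limma). Ptrf fell by 0.29 at 96 h with the 2 arrays exchanged, and with both left out it fell by 0.26 (adjusted p = 0.000926 and 0.0147, limma).

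Many genes changed over the same times. The share of all genes past the threshold against 0 h was 31.7% at 6 h, 36.8% at 24 h and 37.9% at 96 h (34.2%, 39.6% and 44% with the 2 arrays exchanged). Between 6 and 24 h it was 13.7% on isotropic and 13.5% on anisotropic coating (17.5% and 17.3% with the arrays exchanged), and between 24 and 96 h 4.63% and 14.3% (23.1% and 20.7% exchanged, and 17.4% and 21.1% with both left out). Endothelial markers fell beside Cav1 and Cav2. All 5 measured ones, Cdh5, Tie1, Tek, Emcn and Vwf, fell against 0 h at every time, with medians of -1.29, -3.13 and -3.66 log2 units at 6, 24 and 96 h where the medians of all genes were -0.01, 0.02 and 0.04. The mean of the 5 ran from 7.90 to 8.51 over the 0 h arrays and from 4.94 to 5.32 over the isotropic unstretched arrays at 96 h. Of the 7 fibroblast markers, 5 fell and 1 rose at 6 h, 2 fell and 2, Pdgfra and Ddr2, rose at 24 h, and 3 fell and 1 rose at 96 h, where with the 2 arrays exchanged 2 fell and 3 rose. Their median at 96 h was -0.11 as labelled and 0.35 exchanged. Cardiomyocyte markers fell too: 0 of 7 at 6 h, 6 at 24 h and 5 at 96 h (6 exchanged), with medians of -0.07, -0.36 and -0.21 (-0.28 exchanged at 96 h). Of the 7 macrophage markers, 3 fell at 6 h (4 exchanged), 0 changed at 24 h, and 2 fell and 1 rose at 96 h (2 and 3 exchanged). Of 6 smooth muscle and pericyte markers, 3 fell and 2 rose at 6 h, 1 fell and 2 rose at 24 h, and 1 fell and 2 rose at 96 h (1 and 3 exchanged), with medians of -0.55, 0.14 and 0.37 (0.56 exchanged at 96 h). Of 3 fat cell markers, 2, 1 and 1 fell at the 3 times and 0 rose. Between 6 and 24 h without stretch, 4 of 7 fibroblast markers rose on isotropic and 2 on anisotropic coating, and 0 fell. Their medians were 1.03 and 0.72. Exchanged, 5 and 3 rose and 1 fell on each coating. Of the macrophage markers 4 and 3 rose and 0 fell (4 and 4 rose exchanged), while all 5 endothelial markers fell on both coatings. Cav1 and Cav2 were lower at 24 h than at 6 h on both. The part of these cells in the falls of Cav1, Cav2 and Ptrf was not tested.

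**Figure D2:**
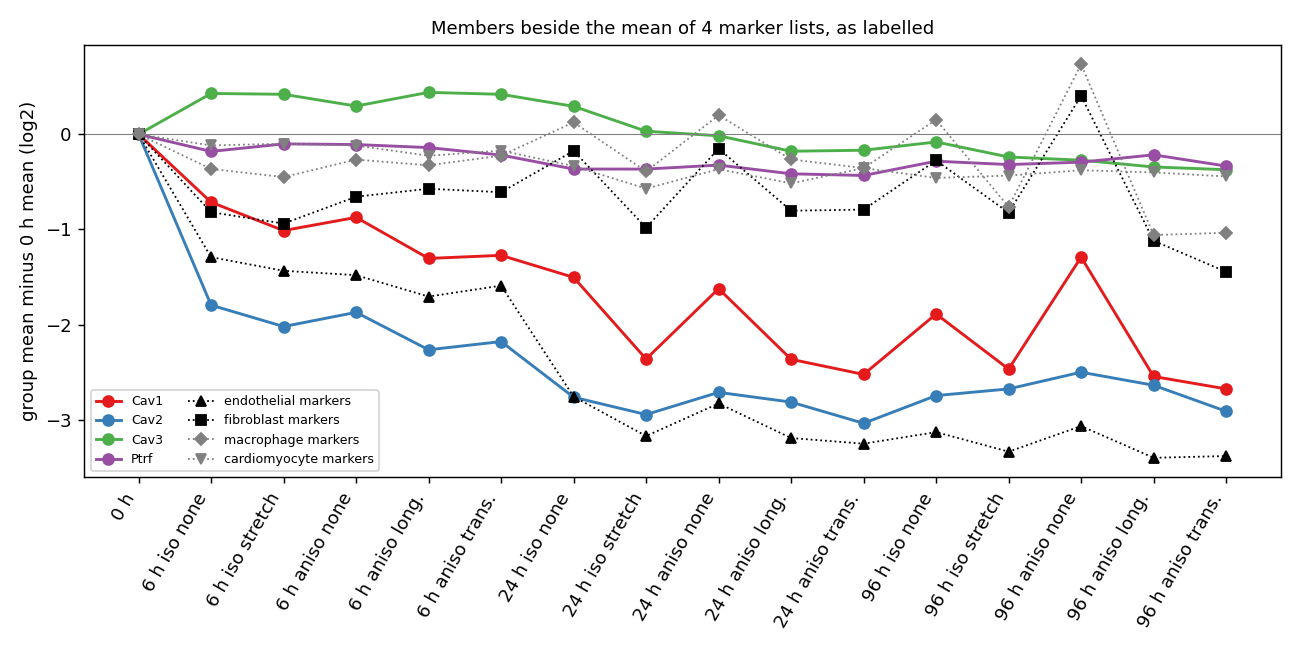
Group mean minus the 0 h mean (log2) for the 4 genes (solid lines) and for the mean of 4 marker lists (dotted lines) across the 16 groups as labelled. Cav2 and the endothelial markers are lowest after 24 and 96 h, and Cav1, the fibroblast markers and the macrophage markers are lower in stretched than in unstretched groups at those times.

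The second question is how stretch changes the caveolar genes within a time and layout. The 9 comparisons are not independent, because longitudinal and transverse stretch at a time were set against the same unstretched arrays. Cav1 was lower in stretched than in unstretched cells in 9 of 9 comparisons as labelled, and in 1 of them the difference passed. That was transverse stretch at 96 h: the stretched arrays read 7.19, 8.48 and 7.79, all below the unstretched anisotropic arrays at 8.87, 9.56 and 9.20, a difference of -1.35 ± 0.36 (SE, 95% interval -2.08 to -0.63, adjusted p = 0.00716, limma), or 2.56-fold. Without replicate 1 of the stretched group it was -1.15 and did not pass (adjusted p = 0.0724, limma). Longitudinal stretch at 96 h gave 7.91, 7.71 and 8.24, also all below the unstretched arrays, and -1.08 ± 0.38 (adjusted p = 0.0651, limma). That difference passed under 6 of 10 other settings, among them the fit without the harvest term, at -1.25 (adjusted p = 0.0227, limma).

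The isotropic comparisons are the ones the 2 arrays enter directly. As labelled, the Cav1 difference with isotropic stretch at 24 h was -0.86 ± 0.35 and did not pass (adjusted p = 0.187, limma), with overlapping arrays. Within harvests the difference was 0.86 in harvest 1, which holds the array that stands apart, -2.17 in harvest 2 and -1.27 in harvest 4. With the 2 arrays exchanged Cav1 averaged 7.55 ± 0.26 (SD, n = 3) in the stretched group against 8.995 ± 0.53 unstretched, a difference of -1.45 ± 0.21 (SE, adjusted p = 2.54e-05, limma), and with both left out it was -1.62 ± 0.23 (adjusted p = 2.74e-05, limma). At 96 h isotropic stretch gave -0.58 ± 0.35 as labelled (adjusted p = 0.488, limma), -1.17 ± 0.21 exchanged (adjusted p = 0.000342, limma) and -0.95 ± 0.23 with both left out (adjusted p = 0.00701, limma).

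On anisotropic coating the 2 arrays act only through the shared estimate of spread and the harvest term. At 24 h Cav1 read 8.61, 7.96 and 7.84 with longitudinal stretch and 7.83, 7.996 and 8.10 with transverse stretch, against 8.41, 9.24 and 8.99 without. The transverse arrays were all below the unstretched ones and the longitudinal arrays overlapped them. The differences were -0.78 ± 0.36 and -0.86 ± 0.38 as labelled (adjusted p = 0.316 and 0.28, limma), and -0.79 ± 0.22 and -0.88 ± 0.23 with the arrays exchanged, where both passed (adjusted p = 0.0297 and 0.0271, limma). At 96 h, with the arrays exchanged, longitudinal stretch gave -1.12 ± 0.23 (adjusted p = 0.000748, limma) and transverse stretch -1.41 ± 0.22 (adjusted p = 9.51e-06, limma). At 6 h the Cav1 differences lay between -0.50 and -0.30 and none passed under either reading.

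**Figure D3:**
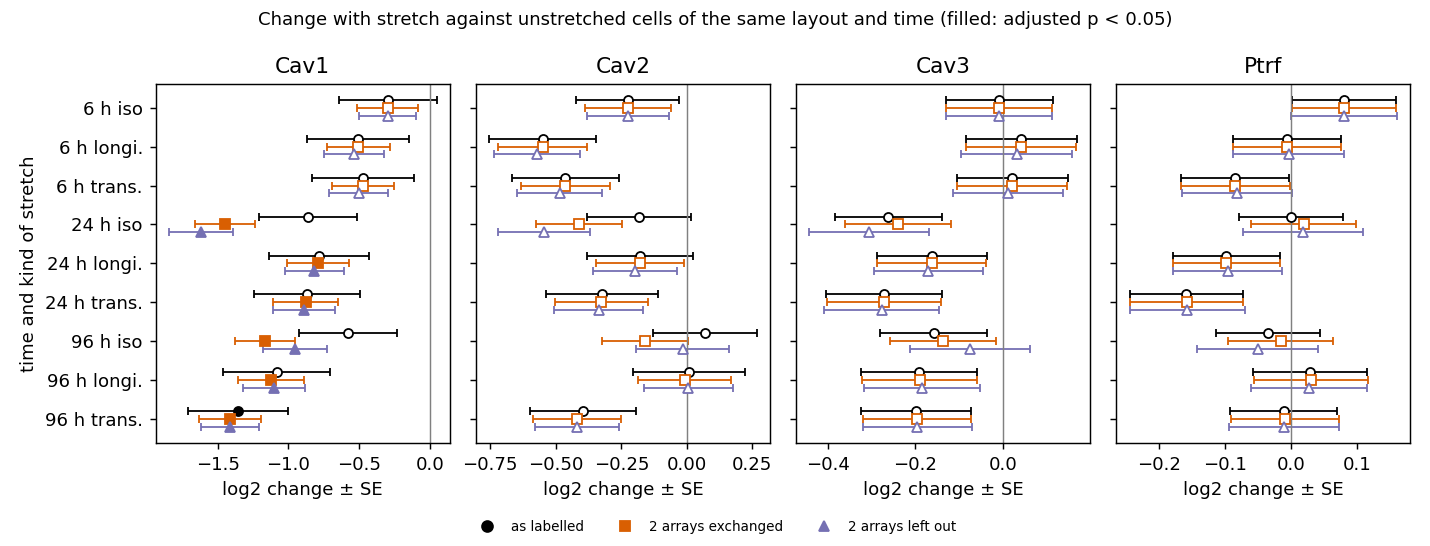
Log2 change with stretch against unstretched cells of the same layout and time (x axis, ± SE) for the 4 genes in 9 comparisons, as labelled (circles), with 2 arrays exchanged (squares) and with both left out (triangles); filled symbols passed at an adjusted p under 0.05 (limma). Cav1 lies below 0 in 9 of 9 comparisons, with 1 call as labelled, and Cav2, Cav3 and Ptrf have no filled symbol.

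In the background to these counts, the share of all genes past the threshold as labelled was 0.00538%, 0.0968% and 0% at 6 h for isotropic, longitudinal and transverse stretch, 3.93%, 2.23% and 1.46% at 24 h, and 2.94%, 9.7% and 15% at 96 h. With the arrays exchanged it was 8.13%, 4.32% and 3.48% at 24 h and 7.97%, 14% and 19.3% at 96 h, and with both left out 6.44% and 5.98% for isotropic stretch at 24 and 96 h. Several fibroblast markers were lower with stretch at 24 and 96 h, as Cav1 was. At 6 h of stretch 0 of 7 passed, with medians of -0.08, -0.03 and 0.04 for isotropic, longitudinal and transverse stretch. As labelled, 4, 3 and 2 of 7 fell at 24 h and 2, 4 and 5 of 7 at 96 h with isotropic, longitudinal and transverse stretch, and 0 rose. Exchanged, 4, 4 and 3 fell at 24 h and 4, 4 and 5 at 96 h, and 1 rose with longitudinal stretch at 24 h. The fibroblast median with isotropic stretch at 96 h was -0.86 as labelled and -1.29 exchanged. Dcn, a proteoglycan of fibroblast matrix, fell by 3.03 with transverse stretch at 96 h, Lum fell by 3.25 and Tcf21, a fibroblast transcription factor, fell by 2.55, while Col1a1 (-0.28) and Postn (-0.35) did not pass. The mean of the 7 fibroblast markers ran from 7.76 to 8.25 over the transverse arrays at 96 h and from 9.69 to 10.12 over the unstretched ones. Of 7 macrophage markers, 3, 2 and 0 fell at 24 h with isotropic, longitudinal and transverse stretch (4, 3 and 3 exchanged) and 5, 7 and 7 at 96 h (7 each exchanged). Their mean at 96 h ran from 5.03 to 5.67 with longitudinal and from 5.18 to 5.55 with transverse stretch, against 7.08 to 7.29 unstretched. The array labelled 24 h isotropic stretched, replicate 1, was the highest of its group for the fibroblast list too, within a group range of 8.01 to 9.11. Of 5 endothelial markers, already low by then, 2, 1 and 1 fell at 24 h and 0, 1 and 2 at 96 h. Smooth muscle and pericyte markers went both ways. Of 6 measured, 1, 2 and 0 rose and 0 fell at 24 h (1, 2 and 1 rose and 2, 0 and 0 fell exchanged). At 96 h 0, 1 and 2 rose and 0, 1 and 2 fell (0, 1 and 2 and 1, 2 and 2 exchanged), with medians of 0.16, 0.34 and 0.40. Of the 7 cardiomyocyte markers, 3 fell with isotropic stretch at 24 h (median -0.29), 2 with longitudinal stretch at 96 h, and 2 with transverse stretch at 96 h, where 1 rose. Of 3 fat cell markers, 0 passed at 24 h and 0, 1 and 1 fell at 96 h. The part of these cells in the lower Cav1 signal was not tested.

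Cav2 lay below 0 with stretch in 7 of 9 comparisons and none passed. With transverse stretch at 96 h it read 4.40, 5.14 and 5.02 against 5.04, 5.41 and 5.33 without, overlapping, with a difference of -0.39 and a 95% interval of -0.81 to 0.02 (adjusted p = 0.202, limma). At 6 h the longitudinal and transverse differences were -0.55 and -0.46 (adjusted p = 0.819 and 1, limma). Whether the responses of Cav1 and Cav2 to stretch differ was not tested.

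Cav3 and Ptrf showed no call with stretch in any of 9 comparisons each, and each lay below 0 in 7 of the 9. The Cav3 differences ran from -0.27, with transverse stretch at 24 h (95% interval -0.54 to -0.00), to 0.04, with longitudinal stretch at 6 h. For transverse stretch at 24 h the plain difference of the Cav3 group means was -0.15. Harvest 4, the only one with both groups, gave 0.26. The Ptrf differences ran from -0.16, with transverse stretch at 24 h, to 0.08, with isotropic stretch at 6 h. For Cav3 and Ptrf, exchanging the 2 arrays gave no call with stretch either.

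The third question is whether layout or the direction of stretch matters. No member passed in any of 3 comparisons of anisotropic with isotropic unstretched cells, where 0%, 0% and 0.0161% of all genes passed at 6, 24 and 96 h, or in any of 3 comparisons of transverse with longitudinal stretch, where 0.0215%, 0% and 0% passed. For Cav1 the transverse minus longitudinal difference was 0.03 at 6 h, -0.08 at 24 h and -0.27 at 96 h, with a 95% interval of -1.03 to 0.49 at 96 h. No member passed an F test of equal response to isotropic, longitudinal and transverse stretch, where 0.0269%, 0% and 0% of all genes passed at 6, 24 and 96 h. None passed an F test of equal response at the 3 times, where 0.344% passed for isotropic, 1.75% for longitudinal and 2.83% for transverse stretch. The nearest was Cav1 under isotropic stretch with the 2 arrays exchanged (adjusted p = 0.0677, limma), where 1.62% of all genes passed. As labelled this Cav1 test gave an adjusted p of 0.921 (limma). A growth of the Cav1 difference from 6 to 24 and 96 h was therefore not shown.

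In sum over 22 comparisons as labelled, Cav1 passed in 3, all lower, Cav2 in 5, all lower, Cav3 in 3, of which 2 were higher, and Ptrf in 2, both lower. Apart from Cav1 with transverse stretch at 96 h, where 15% of all genes passed, these calls were over time. In those comparisons 13.5% to 37.9% of all genes passed. With the 2 arrays exchanged, Cav1 passed in 11. More of all genes then passed too, for example 8.13% in place of 3.93% with isotropic stretch at 24 h.

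In all, 22 other genes listed with caveolae were measured. They included coat proteins, membrane-bending proteins, kinases and receptors held there, and also Flot1 and Flot2, which belong to other membrane domains. Against 0 h on isotropic coating without stretch, 10 fell and 2 rose at 6 h, 9 fell and 3 rose at 24 h, and 10 fell and 4 rose at 96 h, with list medians of -0.12, -0.21 and -0.19 beside the all-gene medians above and the 31.7%, 36.8% and 37.9% of all genes that passed. Exchanging the 2 arrays gave 10 falls at 24 h, and at 96 h 10 fell and 2 rose, Ehd4 and Flot2 having lost the call (adjusted p = 0.0781 and 0.09, limma). Nos3, endothelial nitric oxide synthase, which binds caveolin-1, changed by -1.84, -1.99 and -2.16 log2 units at 6, 24 and 96 h, each a fall that passed. Plvap, which forms the diaphragm of endothelial caveolae, fell by 1.07, 0.86 and 1.29. Cd36, a fatty acid transporter, fell by 0.92, 0.96 and 1.21. Of the other cavins, Sdpr (cavin-2) fell by 1.02, 1.12 and 0.68, and Murc, the muscle cavin-4, fell by 0.86 at 24 h and 0.57 at 96 h. The Sdpr fall at 96 h did not pass without replicate 1 of the isotropic unstretched group (-0.33, adjusted p = 0.244, limma), and the Murc fall at 96 h did not pass without replicate 2 of that group (-0.42, adjusted p = 0.187, limma), nor without replicate 1 or 3 at 0 h (adjusted p = 0.0814 and 0.0516, limma). Prkcdbp (cavin-3) did not pass at any of these times. Flot1 and Flot2, scaffold proteins of other membrane domains, rose: Flot1 by 0.96, 1.47 and 1.21, and Flot2 by 0.25, 0.96 and 0.22. The Flot2 rises at 6 and 96 h lost their calls under several settings, among them the fit without the harvest term (adjusted p = 0.0944 and 0.132, limma), and the one at 24 h did not under those tried. Flna, an actin crosslinker that binds caveolin-1, rose by 0.47 at 24 h and 0.80 at 96 h.

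With isotropic, longitudinal and transverse stretch, 0 of these 22 genes passed in each comparison at 6 h, 1 in each at 24 h, beside 3.93%, 2.23% and 1.46% of all genes, and 0, 2 and 4 at 96 h, beside 2.94%, 9.7% and 15%. At 24 h that gene was Flot2, which fell by 0.75, 0.56 and 0.42 with isotropic, longitudinal and transverse stretch (adjusted p = 8.82e-06, 0.00113 and 0.0308, limma). The transverse call was lost without the harvest term (adjusted p = 0.0862, limma) and without any 1 of replicates 1 and 2 of either group, with adjusted p between 0.0899 and 0.246 (limma). At 96 h Sdpr fell by 0.79 with longitudinal and 0.89 with transverse stretch (adjusted p = 0.0385 and 0.00776, limma), and Fyn, a kinase that can phosphorylate caveolin-1, by 0.62 and 0.67 (adjusted p = 0.0136 and 0.00267, limma). Ehd4, a membrane-remodelling ATPase, rose by 0.36 and Insr, the insulin receptor, by 0.62 with transverse stretch (adjusted p = 0.0103 and 0.0101, limma). Each of these 96 h calls was lost on leaving out 1 array: the longitudinal Sdpr call without any 1 of the 6 arrays compared (adjusted p between 0.064 and 0.106, limma), and the transverse Sdpr and Fyn calls without replicate 1 of the stretched group (adjusted p = 0.0524 and 0.0566, limma). The longitudinal Fyn call was lost without unstretched replicate 1 or stretched replicate 3 (adjusted p = 0.0539 and 0.0614, limma), the Ehd4 call without unstretched replicate 2 or stretched replicate 3 (adjusted p = 0.0929 and 0.0569, limma), and the Insr call without unstretched replicate 2 or stretched replicate 1 (adjusted p = 0.0958 and 0.0645, limma).

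With the 2 arrays exchanged more of the list passed with stretch, 5, 3 and 3 of 22 at 24 h and 2, 6 and 6 at 96 h, and so did more of all genes, 8.13%, 4.32% and 3.48% at 24 h and 7.97%, 14% and 19.3% at 96 h. Ehd2, an ATPase at the neck of caveolae, then fell in all 6 comparisons at 24 and 96 h, by 0.81, 0.62 and 0.40 at 24 h and 0.39, 0.54 and 0.55 at 96 h with isotropic, longitudinal and transverse stretch, and Insr rose in all 6, by between 0.49 and 0.64. As labelled, Ehd2 passed in none of these.

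**Figure D4:**
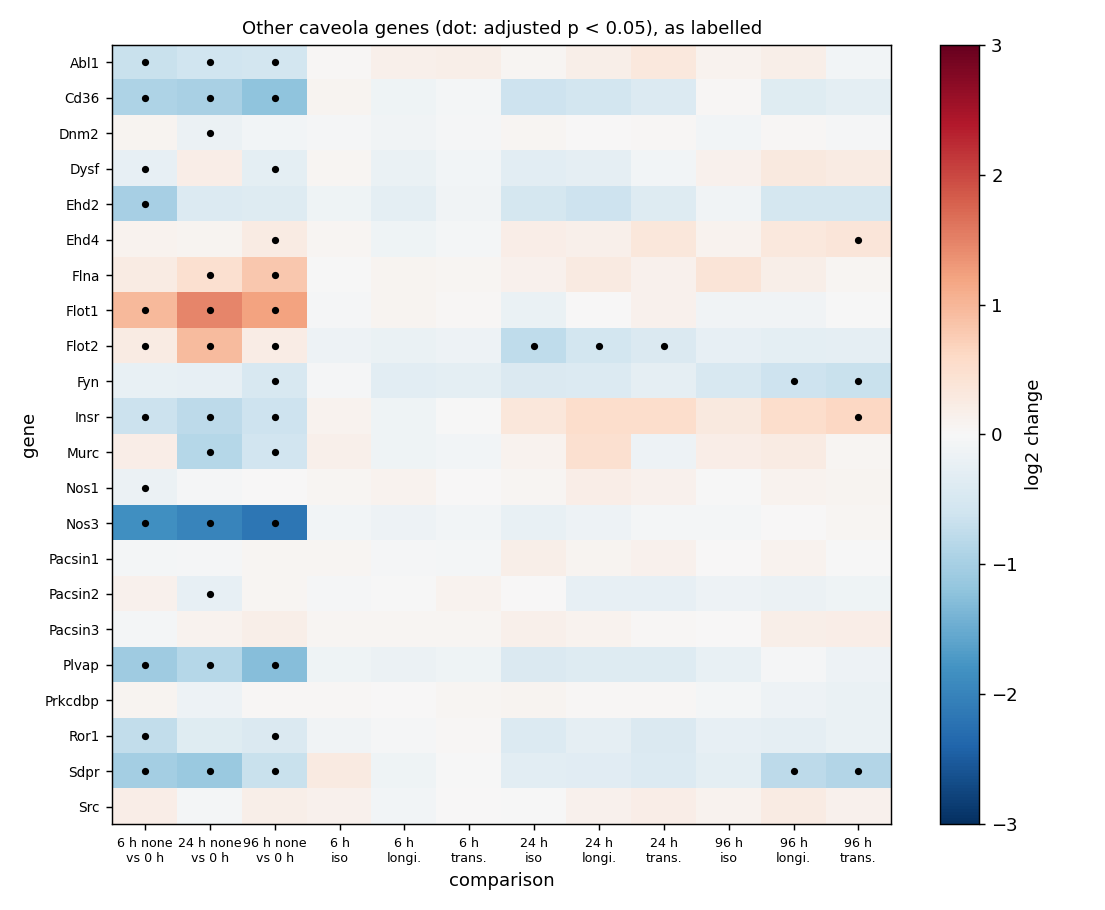
Log2 change (colour, blue lower and red higher) of the 22 other caveola genes (rows) against 0 h in unstretched isotropic cells and with stretch at 6, 24 and 96 h (columns), as labelled; a dot marks an adjusted p under 0.05 (limma). Nos3 is lower at all 3 times against 0 h, Flot1 is higher, and with stretch only Flot2 at 24 h and Sdpr, Fyn, Ehd4 and Insr at 96 h carry dots.

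Across the 16 group means Pearson's r was 0.85 between Cav1 and Cav2, 0.86 between Cav2 and Ptrf, 0.80 between Cav1 and Ptrf, 0.65 between Cav1 and Cav3, 0.49 between Cav3 and Ptrf and 0.35 between Cav2 and Cav3. Without the 0 h group the 6 pairs lay between 0.62, for Cav3 and Ptrf, and 0.89, for Cav2 and Ptrf, over 15 groups, with Cav2 and Cav3 at 0.73 and Cav1 and Cav3 at 0.81. These are descriptions over groups that share harvests and, for all later groups, time in culture.

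The genes whose group means ran most like those of Cav1 over the 16 groups were Col15a1 (r = 0.99), a basement membrane collagen, Coq7 (0.98), an enzyme of ubiquinone synthesis, and Rbmx, Hmgn2 and Hmgb2 (each 0.97), which bind RNA or chromatin. Exchanged, Col15a1 stood at 0.98, and Rbmx and Hmgb2 (0.96 and 0.95) were no longer among the 5. For Cav2 they were Ablim3, Gimap8, Adamts9, Gpr4 and Cldn5, with r from 0.98 to 0.99 and from 0.97 to 0.98 with the arrays exchanged. Without the 0 h group, where Cav2 was highest, r ran from 0.93 for Cldn5 to 0.98 for Gimap8. Cldn5 is the tight junction claudin of endothelium. Gimap8, Gpr4 and Cldn5 were not among the 5 with the arrays exchanged. For Cav3 they were Med10, Rpia, Qrsl1, Dnajc8 and Oas1b (r = 0.95 each), and for Ptrf Entpd1 (0.95), Socs2 (0.94), Pcmt1 (0.93), Lrrc8a (0.92) and Elf4 (0.92). With the arrays exchanged, Oas1b for Cav3 and Pcmt1 and Elf4 for Ptrf were not among the 5.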

How the data were processed

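RNA from 51 cultures was hybridised to Affymetrix arrays, 1 array each. Per the submitters' processing notes, Affymetrix Expression Console, RMA and limma were used, with no version or setting named. Log2 signals were deposited by the authors per probe set, in 2 tables that held the same values, and a table of log2 fold changes. RMA corrects the background, scales arrays to one distribution and summarises probes, which compresses changes of dim genes. Of 29214 probe sets, 20360 carried 1 symbol, giving 18602 genes, each by its probe set with the highest mean. Median signals ran from 5.31 to 5.43 over arrays, and array-to-array correlations from 0.95 to 1.00.

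From these values limma 3.58.1 in R 4.3.3 fitted a mean for each group and harvest as a fixed term (30 residual degrees of freedom) over all arrays. Moderated tests were run on 22 comparisons and 6 F tests, with Benjamini-Hochberg adjustment over all genes in each and a threshold of 0.05. Harvest numbers pair the samples per the labels: deviations from group means correlated at 0.22 on average within a harvest (220 array pairs) and -0.05 between harvests (995 pairs). Replicates are separate harvests per the labels. Pairing was partial: stretched and unstretched groups shared 3 harvests on isotropic coating. On anisotropic coating they shared 2 for longitudinal stretch at 24 h and transverse stretch at 96 h. They shared 1 for longitudinal stretch at 6 and 96 h and transverse stretch at 6 and 24 h. The fit was also run on simulated data with normal noise and no arrays that stand apart, so that run does not bear on the 2 arrays here. The alternatives left out the harvest term, made it random, subtracted the 0 h arrays, used only the arrays compared, left out the dimmest 25% of genes, rescaled, exchanged or left out 2 arrays, took other probe sets, and left out each array in turn. Named caveola genes were those past the threshold, the largest in each direction, and the likest genes were the 5 with the highest r. Ehd2 was named after its values were seen. Markers Pecam1, Kdr, Acta2 and the gene Ehd1 were not found under these or older symbols and are not analysed here; Plin1 was found as Plin. The members and lists were chosen with earlier results of these data known. RefSeq sequences and positions are of GRCr8. Figures were drawn with matplotlib 3.10.9.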

Additional observations from a re-analysis of the deposited data

How the results depend on the processing

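Of 88 differences for the 4 genes, 13 passed as labelled. Of these 2, both of Cav3, lost the call under at least 1 of the 10 settings. On leaving out 1 array 3 lost it, the same 2 and Cav1 with transverse stretch at 96 h, while 0 of the 13 changed sign. The number of comparisons that Cav1 passed, 3 as labelled, was 1 with the 0 h array of each harvest subtracted (19 comparisons), 8 with only the arrays compared and 0 h, 5 with dim genes left out, 11 with the 2 arrays exchanged and 11 with them left out, and from 3 to 10 leaving out 1 array (10 without replicate 1 of the 24 h isotropic stretched group). With the 0 h arrays subtracted, which drops the comparisons with 0 h, the numbers were 2 of Cav2, 0 of Cav3 and 0 of Ptrf, against 5, 3 and 2. The Cav3 fall from 6 to 24 h on anisotropic coating was among the comparisons kept there and lost its call. Without the replicate block, that is without harvest, and with harvest as a random block, Cav3 passed in 1 comparison each. The cause of these shifts was not tested, apart from the comparisons dropped. The 3 arrays a group limit the precision. Of 69 calls for other caveola genes, for which 6 of these settings were run, 15 were lost under at least 1 of the 6 and 27 without 1 array.

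Changes of sign were counted only among the 66 differences that passed under no setting, left-out arrays included. Of their 659 values under these settings, 32 had the other sign. The largest of the turned differences, by its size as labelled, was that of Cav1 from 24 to 96 h on isotropic coating (-0.42). Without the harvest term, the turned values were 0.010 for Cav3 (transverse minus longitudinal stretch at 24 h), -0.14 for Cav2 (longitudinal stretch at 96 h) and -0.081 for Cav3 (isotropic 96 h minus 0 h). With harvest as a random block, the turned values were -0.062 for Cav2 (longitudinal stretch at 96 h) and -0.029 for Cav3 (isotropic 96 h minus 0 h). With the 0 h array of each harvest subtracted, the turned values were 0.041 for Ptrf (longitudinal stretch at 6 h), -0.12 for Cav2 (longitudinal stretch at 96 h), 0.014 for Ptrf (transverse stretch at 96 h), -0.021 for Cav2 (isotropic 96 h minus 24 h) and -0.024 for Ptrf (anisotropic 96 h minus 24 h). With only the arrays compared and 0 h, the turned values were 0.015 for Ptrf (longitudinal stretch at 6 h), -0.041 for Cav2 (longitudinal stretch at 96 h), -0.030 for Cav3 (isotropic 96 h minus 0 h) and -0.0063 for Cav2 (isotropic 96 h minus 24 h). With quantile scaling repeated, the turned values were 0.0056 for Ptrf (longitudinal stretch at 6 h), -0.0003 for Cav3 (transverse stretch at 6 h), 0.041 for Ptrf (isotropic stretch at 24 h), -0.0046 for Ptrf (longitudinal stretch at 96 h), 0.013 for Cav3 (transverse minus longitudinal stretch at 96 h), 0.014 for Ptrf (anisotropic minus isotropic at 96 h), -0.0011 for Cav3 (isotropic 96 h minus 0 h) and -0.046 for Cav2 (isotropic 96 h minus 24 h). With the 2 arrays exchanged, the turned values were 0.019 for Ptrf (isotropic stretch at 24 h), -0.16 for Cav2 (isotropic stretch at 96 h), -0.0073 for Cav2 (longitudinal stretch at 96 h), 0.0088 for Ptrf (anisotropic minus isotropic at 96 h), 0.23 for Cav1 (isotropic 96 h minus 24 h) and -0.0005 for Ptrf (anisotropic 96 h minus 24 h). With these arrays left out, the turned values were 0.017 for Ptrf (isotropic stretch at 24 h), -0.015 for Cav2 (isotropic stretch at 96 h), -0.054 for Cav3 (isotropic 96 h minus 0 h) and 0.015 for Cav1 (isotropic 96 h minus 24 h).

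Leaving out 1 array of the groups compared turned the sign of these differences, none of which had passed as labelled. For Cav1 the ranges were -0.28 to 0.014 (anisotropic minus isotropic at 24 h), -0.16 to 0.094 (anisotropic minus isotropic at 6 h), -0.64 to 0.039 (isotropic 96 h minus 24 h), -0.18 to 0.080 (transverse minus longitudinal stretch at 24 h) and -0.19 to 0.22 (transverse minus longitudinal stretch at 6 h). For Cav2 the ranges were -0.13 to 0.16 (anisotropic minus isotropic at 6 h), -0.55 to 0.079 (isotropic stretch at 24 h), -0.044 to 0.21 (isotropic stretch at 96 h), -0.15 to 0.12 (isotropic 96 h minus 24 h), -0.16 to 0.15 (longitudinal stretch at 96 h) and -0.14 to 0.24 (transverse minus longitudinal stretch at 6 h). For Cav3 the ranges were -0.039 to 0.013 (isotropic stretch at 6 h), -0.053 to 0.089 (isotropic 96 h minus 0 h), -0.0021 to 0.10 (longitudinal stretch at 6 h), -0.34 to 0.075 (longitudinal stretch at 96 h), -0.29 to 0.053 (transverse minus longitudinal stretch at 24 h), -0.077 to 0.025 (transverse minus longitudinal stretch at 6 h), -0.27 to 0.15 (transverse minus longitudinal stretch at 96 h) and -0.0059 to 0.065 (transverse stretch at 6 h). For Ptrf the ranges were -0.10 to 0.077 (anisotropic minus isotropic at 96 h), -0.094 to 0.080 (anisotropic 96 h minus 24 h), -0.018 to 0.016 (isotropic stretch at 24 h), -0.052 to 0.022 (longitudinal stretch at 6 h), -0.054 to 0.13 (longitudinal stretch at 96 h), -0.13 to 0.022 (transverse minus longitudinal stretch at 24 h), -0.15 to 0.013 (transverse minus longitudinal stretch at 6 h), -0.13 to 0.074 (transverse minus longitudinal stretch at 96 h), -0.16 to 0.0032 (transverse stretch at 6 h) and -0.090 to 0.10 (transverse stretch at 96 h). For Ehd2 the ranges were -0.43 to 0.070 (isotropic stretch at 96 h) and -0.18 to 0.35 (isotropic 96 h minus 24 h).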
